A study of Rattus norvegicus with 16 samples.

Results

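The EGF family ligands and their ErbB receptors were followed in rat corneas 2 days after suture placement. The group was set by name and not by measured values, and it holds 10 genes, of which 7 encode ligands (*Egf*, *Tgfa*, *Hbegf*, *Areg*, *Ereg*, *Btc* and *Nrg1*) and 3 encode receptors (*Egfr*, *Erbb2* and *Erbb3*). All 10 were found on the array, with 20 of the 31042 probe sets tested, among 14217 genes in all. Right corneas of male Wistar rats, 12 to 16 weeks old, carried 2 sutures placed temporally, 1.5 mm from the limbus, and received drops 4 times a day for 2 days. The drops held dexamethasone (a synthetic glucocorticoid, 1 mg/ml), a goat antibody against rat Vegf (anti-*Vegf*) or goat IgG as the sham treatment, and the antibody and IgG doses differ in unit between the sample labels and the methods, so they are not given here. Naïve corneas, from rats of the same strain, sex and age range, were neither sutured nor treated. Each group had 4 corneas with 1 array each, and suture, injury and treatment therefore go together in every comparison with naïve tissue. The harvested piece is described as cornea without the limbal or scleral rim.

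ErbB receptors are tyrosine kinases at the cell surface. Ligands of the EGF family are made as membrane-bound precursors, are cut free by ADAM proteases, and bring receptors together in pairs that signal through the ERK and PI3K pathways. *Erbb2* has no known ligand of its own and *Erbb3* has a weak kinase, so they act mainly in pairs with other receptors. In the cornea, Egfr signalling is known for its part in the closure of epithelial wounds.

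The results fell into 3 patterns. *Areg*, *Tgfa* and *Nrg1* rose and *Egf* fell in all 3 sutured groups relative to naïve corneas. *Ereg* and *Erbb3* were lower under dexamethasone than under anti-*Vegf* or IgG, by 0.42 to 0.59 on the log2 scale. A pair of *Nrg1* probe sets was higher under dexamethasone than under IgG, and none of the other 6 probe sets of the gene was called in that comparison. Of the pair, 1371211_a_at lost its call in 8 of 14 repeats with other processing or fewer arrays. The brightest *Nrg1* probe set differed by 0.08 there, and 1370607_a_at by -0.67.

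Values are log2 signals, so a difference of 1 is a doubling. Where several probe sets report on a gene, the one brightest on average stands for it. Relative to naïve corneas a gene was called where the adjusted p of limma was under 0.05 and the change was at least 1.5-fold, and between treatments where the adjusted p was under 0.05. Of the 10 members, 4 were called in the dexamethasone group (3 higher and 1 lower), against 12.6% of all genes (8.19% higher and 4.45% lower). The anti-*Vegf* group also had 4 (3 higher, 1 lower), against 12.8% of all genes (6.82% higher and 5.94% lower), and the IgG group 4 (3 higher, 1 lower), against 11.3% (6.32% higher and 5.02% lower). The 3 comparisons share the naïve arrays. With each array centred on reference genes, the members called were 2 higher and 3 lower in dexamethasone, 2 higher and 2 lower in anti-*Vegf* and 3 higher and 1 lower in IgG, and the share of rises among all called genes was 34.6%, 20.4% and 28.3%, in place of 64.8%, 53.5% and 55.8%. Between treatments, 2 members were lower in dexamethasone than in anti-*Vegf* corneas, against 7.13% of all genes called and 2.5% lower, and 2 were lower in dexamethasone than in IgG corneas, against 10.6% called and 3.16% lower. No member was called between anti-*Vegf* and IgG, where limma called 0% of all genes. At an unadjusted p under 0.05 this last comparison held 0 members and 942 genes. Called or not, corneas did not overlap with naïve in 8 members in dexamethasone, 6 in anti-*Vegf* and 5 in IgG. Among all genes the shares were 28.3%, 31.3% and 31.3%. Dexamethasone did not overlap with anti-*Vegf* in 2 members and 13.9% of all genes, and with IgG in 2 members and 17.2%. The backgrounds between treatments depended on single arrays. The 1013 genes called between dexamethasone and anti-*Vegf* became 572 without anti-*Vegf* replicate F6, 646 without F7 and 660 without dexamethasone replicate F27. The 1503 between dexamethasone and IgG became 890 without IgG replicate F19, and 963 and 941 without dexamethasone replicates F26 and F27. Between anti-*Vegf* and IgG, 2 genes were called without anti-*Vegf* replicate F2 and 1 without IgG replicate F23.

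**Figure D1:**
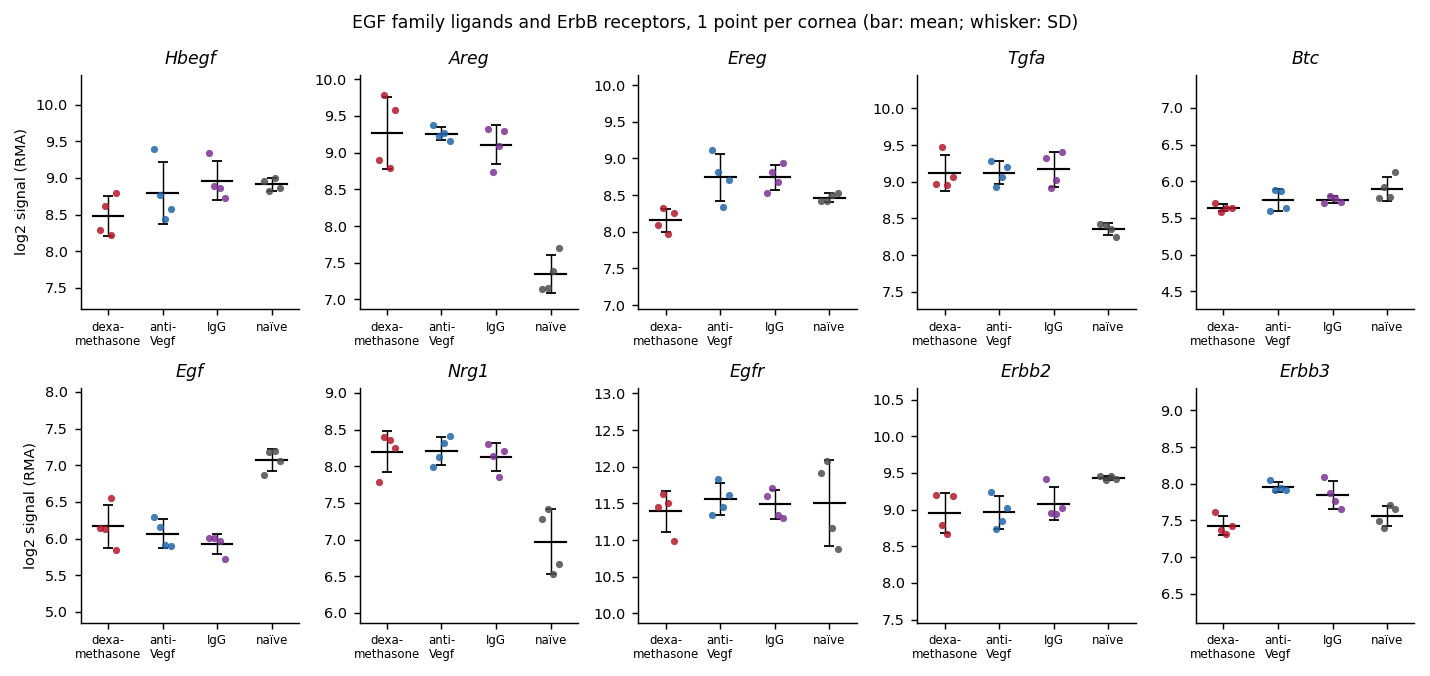
Log2 signal of the 10 genes (y axis, the same span in every panel) in the dexamethasone, anti-Vegf, IgG and naïve groups (x axis), with 1 point per cornea, the mean as a bar and the SD as a whisker. Areg, Tgfa and Nrg1 sit higher and Egf lower in every sutured cornea than in the 4 naïve corneas, and Ereg and Erbb3 sit lower in the dexamethasone corneas than in the anti-Vegf and IgG corneas.

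Several measured facts stand beside these counts. All 9 leukocyte markers rose in each sutured group, with summed linear signals of 2200 to 5000 in dexamethasone, 3140 to 3750 in anti-*Vegf*, 2650 to 3950 in IgG and 652 to 775 in naïve corneas, and *Ptprc* (CD45) averaged 4.15 in naïve corneas. All 4 measured neutrophil markers rose in each sutured group as well. Of the 4 corneal endothelium markers, 2 fell in the dexamethasone, 4 in the anti-*Vegf* and 4 in the IgG group. Their summed signals were 5850 to 6250, 3010 to 5050 and 2380 to 5230 in that order. Between treatments, 2 were called higher in dexamethasone than in anti-*Vegf* and 1 higher than in IgG. Of 6 macrophage markers, 1 was lower in dexamethasone than in either. Their sums were 1620 to 2570, 2160 to 2610 and 2630 to 3300. Of 4 measured keratocyte markers, 1 was higher in dexamethasone than in anti-*Vegf*. The other marker lists had no call between treatments. Of the 7 corneal epithelium genes, only *Krt14* was called, and it rose, but the list's median difference from naïve was -0.14 in dexamethasone, -0.33 in anti-*Vegf* and -0.27 in IgG. *Pax6*, an eye transcription factor, differed by -0.54, -0.45 and -0.44 in the same order, *Aldh3a1*, a corneal crystallin, by -0.25, -0.37 and -0.27, and *Tkt*, a transketolase, by -0.22, -0.33 and -0.32. Each had an adjusted p under 0.05 in all 3 groups, did not overlap with naïve and stayed under the fold limit. *Krt12*, the keratin that defines this epithelium, averaged 14.70, 14.70 and 14.70 in the dexamethasone, anti-*Vegf* and IgG groups and 14.76 in naïve corneas. With arrays centred on reference genes, 2 epithelium genes were called in dexamethasone, 5 in anti-*Vegf* and 2 in IgG. The part of these cell types in the members' differences was not tested. These are bulk samples, so fewer cells of a type and less RNA per cell cannot be told apart.

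The arrays also differed in their control probe sets. The 24 poly-A spike probe sets averaged 5.17 in the dexamethasone arrays, 6.88 in anti-*Vegf*, 7.08 in IgG and 5.10 in naïve, with no overlap between dexamethasone and either anti-*Vegf* or IgG (exact permutation test, p = 0.0286 for both, 4 against 4, two-sided, where the smallest p possible is 0.029). The difference between the 5′ and the 3′ control probe set of *Actb*, which falls as RNA is less intact, averaged -1.17 in dexamethasone, -0.87 in anti-*Vegf*, -0.71 in IgG and -1.28 in naïve arrays. The same measure of *Gapdh* averaged -0.39 in dexamethasone, -0.11 in anti-*Vegf*, -0.08 in IgG and -0.30 in naïve arrays. In the *Actb* measure, naïve replicates 1 and 2, at -1.69 and -1.75, stood apart from naïve replicates 3 and 4, at -0.87 and -0.82. Dexamethasone and naïve arrays overlapped in the spikes (exact permutation p = 0.543), so that comparison does not cross the gap. Anti-*Vegf* and IgG against naïve do cross it (exact permutation p = 0.0286 for both), as does dexamethasone against either. The spikes' part in these results was not tested.

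Promoter sequences from the RefSeq table of build GRCr8 were found for 7 of the 10 members and are shown for *Areg*, *Tgfa* and *Egf*, the called members among them. Each runs 5′ to 3′ over 300 bases, from 250 before to 50 after a start site. Capitals mark matches, on either strand, to an AP-1 site (TGANTCA), the glucocorticoid hexamer AGAACA, the palindromic glucocorticoid element (which contains the hexamer), a cAMP response element (TGACGTCA), a TATA box (TATAAA) and a GC box (GGGCGG), the last 3 having been added after the sequences were seen. The *Areg* window is chr14:17265592-17265891 on the minus strand, the *Tgfa* window chr4:120175469-120175768 on the plus strand and the *Egf* window chr2:220976248-220976547 on the minus strand.
Areg: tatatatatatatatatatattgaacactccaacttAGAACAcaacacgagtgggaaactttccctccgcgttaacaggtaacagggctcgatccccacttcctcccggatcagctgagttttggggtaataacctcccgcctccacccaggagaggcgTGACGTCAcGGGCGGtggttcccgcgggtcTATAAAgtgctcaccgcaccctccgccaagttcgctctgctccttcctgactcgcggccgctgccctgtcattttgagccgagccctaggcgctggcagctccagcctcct
Tgfa: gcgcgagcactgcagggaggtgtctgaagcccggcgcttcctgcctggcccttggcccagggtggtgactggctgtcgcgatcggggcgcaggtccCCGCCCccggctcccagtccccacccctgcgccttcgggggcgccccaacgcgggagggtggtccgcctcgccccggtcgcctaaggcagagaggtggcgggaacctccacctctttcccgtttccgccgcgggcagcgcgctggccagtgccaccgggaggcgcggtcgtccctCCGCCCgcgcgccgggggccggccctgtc
Egf: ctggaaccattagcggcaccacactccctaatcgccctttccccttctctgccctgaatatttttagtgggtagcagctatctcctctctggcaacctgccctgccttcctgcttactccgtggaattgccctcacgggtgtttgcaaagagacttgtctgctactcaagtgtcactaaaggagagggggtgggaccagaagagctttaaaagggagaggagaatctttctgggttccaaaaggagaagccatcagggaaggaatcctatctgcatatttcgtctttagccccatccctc

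The *Areg* window held 4 of the matches, with the hexamer starting at position -214, the cAMP response element at -91, the GC box at -82 and the TATA box at -61 from the start site. The *Tgfa* window held 2 GC boxes and is 76.7% G and C, and the *Egf* window held no match and is 51% G and C, against a median of 51.7% over 33469 promoters. Over all these promoters, 7.33% held the AP-1 site, 20.7% the hexamer, 0.0149% the palindrome, 1.83% the cAMP response element, 14.2% the TATA box and 33.1% the GC box. The AP-1 site was in 0 of the 7 member windows and the GC box in 5. A match is a description of the letters and not of a bound site. In the RefSeq order of chromosome 14, *Btc*, *Areg*, *Ereg* and *Epgn* are consecutive protein-coding genes. *Epgn* was looked for, but no probe set carried its symbol alone, so it was not measured here.

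Among the ligands of Egfr, *Areg*, which encodes amphiregulin, had the largest change of the 10 genes. Its probe set, 1369871_at, read 8.91, 9.79, 8.79 and 9.58 in dexamethasone corneas and 9.38, 9.23, 9.27 and 9.16 in anti-*Vegf* corneas. It read 9.32, 8.74, 9.10 and 9.29 in IgG corneas and 7.14, 7.15, 7.38 and 7.70 in naïve corneas. Every sutured cornea lay above every naïve one.
*Areg* was 1.92 higher in dexamethasone (SE 0.20, 3.80-fold, adjusted p = 5.86e-06 by limma), 1.92 higher in anti-*Vegf* (SE 0.20, 3.78-fold, adjusted p = 5.86e-06) and 1.77 higher in IgG (SE 0.20, 3.41-fold, adjusted p = 1.32e-05) than in naïve corneas. Between treatments it differed by 0.01 (dexamethasone against anti-*Vegf*, 95% interval -0.42 to 0.43) and 0.16 (dexamethasone against IgG, -0.27 to 0.58). The spread was wider in the dexamethasone corneas (SD 0.49) than in the anti-*Vegf* corneas (SD 0.09), and the 2 SDs were not compared by a test.

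*Tgfa*, which encodes transforming growth factor alpha, rose in both of its probe sets. On 1381449_s_at it read 8.97, 9.47, 8.96 and 9.06 in dexamethasone and 9.29, 8.93, 9.07 and 9.20 in anti-*Vegf* corneas. It read 9.33, 8.92, 9.02 and 9.40 in IgG and 8.43, 8.41, 8.35 and 8.25 in naïve corneas, so the sutured and naïve corneas did not overlap. The rise was 0.76 in dexamethasone (SE 0.13, 1.69-fold, adjusted p = 0.000473 by limma), 0.76 in anti-*Vegf* (1.70-fold, adjusted p = 0.00038) and 0.81 in IgG (1.75-fold, adjusted p = 0.000269). The second probe set, 1387450_at, rose by 0.78, 0.62 and 0.76 in the same order of groups, also without overlap with naïve. These rises are close to the 1.5-fold limit, a log2 difference of 0.585. With each array centred on reference genes, 1381449_s_at rose by 0.56 in dexamethasone and 0.49 in anti-*Vegf*, under that limit, with adjusted p values of 0.00272 and 0.00391. The call of 1387450_at was then lost in all 3 groups, at 0.58 in dexamethasone, 0.35 in anti-*Vegf* and 0.56 in IgG (adjusted p = 0.00121, 0.0172 and 0.00126).

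*Egf*, the founding ligand of the family, went the other way. Its probe set, 1368325_at, read 6.15, 6.13, 6.56 and 5.84 in dexamethasone and 6.29, 6.16, 5.91 and 5.90 in anti-*Vegf* corneas. It read 6.01, 6.0, 5.97 and 5.72 in IgG and 6.86, 7.19, 7.19 and 7.06 in naïve corneas. The lowest naïve cornea lay above the highest sutured one. *Egf* fell by 0.90 in dexamethasone (SE 0.14, 1.87-fold lower, adjusted p = 0.000179 by limma), by 1.01 in anti-*Vegf* (2.01-fold lower, adjusted p = 6.11e-05) and by 1.15 in IgG (2.22-fold lower, adjusted p = 2.06e-05), relative to naïve. Between dexamethasone and IgG it differed by 0.24 (95% interval -0.05 to 0.53, adjusted p = 0.289). The signal was low, and it passed the 40th percentile of its array on 12 of 16 arrays.

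*Ereg* encodes epiregulin, a ligand of Egfr and Erbb4. On 1369587_at it read 8.09, 8.32, 7.97 and 8.25 in dexamethasone corneas and 9.11, 8.81, 8.34 and 8.71 in anti-*Vegf* corneas. It read 8.53, 8.81, 8.68 and 8.94 in IgG and 8.41, 8.42, 8.50 and 8.53 in naïve corneas. The dexamethasone corneas were the lowest 4 of the 16, although anti-*Vegf* replicate F6, at 8.34, was only just above the highest of them at 8.32. *Ereg* was lower in dexamethasone than in anti-*Vegf* by -0.59 on the log2 scale (SE 0.13, 1.50-fold lower, adjusted p = 0.0158 by limma) and than in IgG by -0.58 (SE 0.13, 1.50-fold lower, adjusted p = 0.0119). Against naïve corneas the differences were -0.31 in dexamethasone (adjusted p = 0.115), 0.28 in anti-*Vegf* (adjusted p = 0.145) and 0.27 in IgG (adjusted p = 0.147), none of which was called. In a fit of the dexamethasone and anti-*Vegf* arrays alone the adjusted p was 0.0653. *Areg*, its chromosomal neighbour, was called in all 3 sutured groups, and the difference between the 2 genes was not tested.

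*Hbegf*, which encodes the heparin-binding EGF-like factor, passed no test. It read 8.29, 8.61, 8.22 and 8.80 in dexamethasone and 9.40, 8.77, 8.44 and 8.58 in anti-*Vegf* corneas. It read 9.34, 8.90, 8.87 and 8.73 in IgG and 8.96, 8.83, 9.0 and 8.86 in naïve corneas. All 4 dexamethasone corneas lay below the 4 naïve ones, with a difference of -0.43 (SE 0.18, 95% interval -0.82 to -0.04, adjusted p = 0.11), and the difference from IgG was -0.48 (adjusted p = 0.114). Of all genes, 28.3% did not overlap between dexamethasone and naïve corneas. With arrays centred on reference genes, dexamethasone against naïve gave -0.63 with an adjusted p of 0.0101. *Btc* (betacellulin) read between 5.59 and 6.12 on all arrays and was above the 40th percentile of signal on 1 of 16, and its differences from naïve were -0.26 in dexamethasone (adjusted p = 0.0463, under the fold limit), -0.16 in anti-*Vegf* and -0.15 in IgG. *Btc* was the 1 member of 10 that did not pass the filter on low signal.

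**Figure D2:**
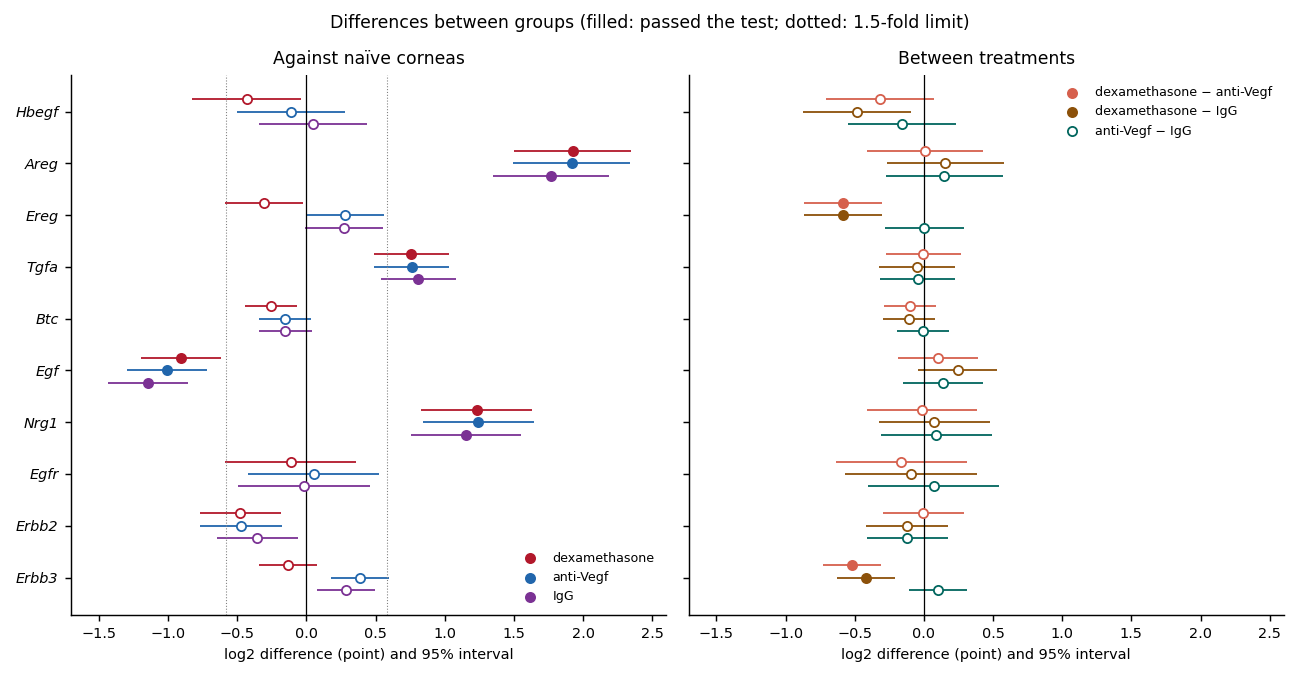
Log2 differences (x axis, point) with 95% intervals (line) for the 10 genes (y axis), on the left for each sutured group against naïve corneas and on the right between treatments, with filled points where the test was passed and dotted lines at 1.5-fold. On the left, the Areg, Tgfa, Nrg1 and Egf points are filled for all 3 groups. On the right, the filled points are Ereg and Erbb3, for dexamethasone against anti-Vegf and against IgG.

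*Nrg1* encodes neuregulin 1, a ligand of Erbb3 and Erbb4 that is made in many splice forms, and 8 probe sets report on it. The probe set that stands for the gene, 1369783_a_at, read 7.79, 8.40, 8.36 and 8.25 in dexamethasone and 7.98, 8.13, 8.32 and 8.41 in anti-*Vegf* corneas. It read 8.30, 8.13, 7.85 and 8.21 in IgG and 7.27, 7.42, 6.52 and 6.66 in naïve corneas, and no sutured cornea fell into the naïve range. The rise was 1.23 in dexamethasone (SE 0.19, 2.35-fold, adjusted p = 0.000211 by limma), 1.24 in anti-*Vegf* (2.37-fold, adjusted p = 0.000165) and 1.15 in IgG (2.23-fold, adjusted p = 0.000346). The 2 higher naïve corneas were replicates 1 and 2, the arrays with the lowest *Actb* difference. Between treatments this probe set differed by -0.01 (dexamethasone against anti-*Vegf*, 95% interval -0.41 to 0.39), 0.08 (dexamethasone against IgG, -0.32 to 0.48) and 0.09 (anti-*Vegf* against IgG, -0.31 to 0.49).

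Other *Nrg1* probe sets gave different orders of the sutured groups. Probe set 1371212_at read 6.91, 7.86, 7.19 and 7.72 in dexamethasone, 6.55, 6.77, 7.06 and 6.87 in anti-*Vegf*, 6.82, 6.65, 6.48 and 6.16 in IgG and 6.02, 6.26, 5.66 and 6.04 in naïve corneas. Its dexamethasone corneas all lay above the IgG corneas, and the difference was 0.89 (SE 0.20, 1.86-fold, adjusted p = 0.00984 by limma). Against anti-*Vegf* it was 0.61 higher (SE 0.20, adjusted p = 0.0779), which missed the threshold. Relative to naïve it rose by 1.42 in dexamethasone and 0.82 in anti-*Vegf*, and in IgG the difference was 0.53 (adjusted p = 0.0588). The difference from anti-*Vegf* was called without dexamethasone replicate F25 (0.78, adjusted p = 0.0247) and with arrays centred on reference genes (0.68, adjusted p = 0.0375), under which the rise of anti-*Vegf* over naïve was 0.55, below the fold limit, and the IgG difference from naïve was called without IgG replicate F23 (0.65, adjusted p = 0.0321) or naïve replicate 2 (0.62, adjusted p = 0.0494).

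Probe set 1371211_a_at read 7.03, 7.86, 7.49 and 7.81 in dexamethasone, 7.18, 6.94, 7.18 and 7.24 in anti-*Vegf*, 7.24, 7.0, 6.79 and 6.95 in IgG and 5.89, 5.83, 5.48 and 5.74 in naïve corneas. It rose by 1.81, 1.40 and 1.26 in dexamethasone, anti-*Vegf* and IgG relative to naïve. Its difference of 0.55 between dexamethasone and IgG (SE 0.16, adjusted p = 0.0367) came with overlapping corneas. That call was lost without any 1 of IgG replicates F19, F22 and F23 or dexamethasone replicates F26, F27 and F30, with adjusted p values of 0.0685 to 0.116. It was also lost in a fit of the dexamethasone and IgG arrays alone (adjusted p = 0.0903) and with a 1.5-fold limit added. Against anti-*Vegf* the probe set was called only without dexamethasone replicate F25, among the repeats that leave out 1 array (0.58, adjusted p = 0.016).

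Probe set 1370607_a_at leaned the opposite way, reading 7.17, 7.97, 7.65 and 6.97 in dexamethasone, 7.72, 7.79, 8.66 and 8.20 in anti-*Vegf*, 8.15, 8.32, 7.70 and 8.26 in IgG and 6.85, 7.03, 5.50 and 5.92 in naïve corneas. Relative to naïve it rose by 1.12 in dexamethasone (SE 0.31, adjusted p = 0.0165), 1.77 in anti-*Vegf* (adjusted p = 0.000579) and 1.78 in IgG (adjusted p = 0.000605). The dexamethasone call was lost without dexamethasone replicate F26 (adjusted p = 0.0625), naïve replicate 3 (0.0577) or naïve replicate 4 (0.0502). It was also lost in a fit of the dexamethasone and naïve arrays alone (adjusted p = 0.056). Dexamethasone against IgG was -0.67 (SE 0.31, adjusted p = 0.201), which was not called. The signal of 1371212_at minus that of 1370607_a_at within each array, a pair chosen after the values were seen, averaged -0.02 ± 0.53 in dexamethasone, -1.28 ± 0.25 in anti-*Vegf*, -1.58 ± 0.40 in IgG and -0.33 ± 0.55 in naïve corneas (SD, n = 4 each). The dexamethasone arrays, from -0.45 to 0.74, did not overlap with the anti-*Vegf* arrays, from -1.60 to -1.01, or the IgG arrays, from -2.11 to -1.23. The naïve arrays, from -0.83 to 0.17, overlapped with the dexamethasone arrays and not with the anti-*Vegf* or IgG arrays, which is the same split as in the poly-A spikes. These values are a description with no p, since the pair was picked for leaning opposite ways.

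The remaining 4 probe sets, 1370616_at, 1388258_at, 1371218_a_at and 1388245_a_at, gave no call in any comparison. Centred on reference genes, 1370616_at was called higher in dexamethasone than in anti-*Vegf* (0.30, adjusted p = 0.0344), where the uncentred difference was 0.23 (adjusted p = 0.129). The RNA measures of the arrays stand beside the *Nrg1* values too. The *Actb* and *Gapdh* differences and the poly-A spikes each separated dexamethasone from IgG arrays without overlap, so they cannot be told apart from treatment there. With group means removed, the correlation with the *Actb* difference over 16 arrays was -0.802 for 1369783_a_at, -0.774 for 1370607_a_at, -0.391 for 1371212_at and -0.316 for 1371211_a_at. Over the same arrays without that step r was 0.125, 0.204, -0.086 and 0.21, with permutation p values of 0.657, 0.453, 0.752 and 0.438 (0.773, 0.621, 0.793 and 0.621 after adjustment over 20 relations). Spearman's rho was 0.029, 0.374, -0.226 and -0.047 (permutation p = 0.918, 0.152, 0.398 and 0.866, adjusted 0.918, 0.38, 0.663 and 0.918), and r without the 2 arrays farthest from the median was -0.228, 0.027, -0.601 and -0.365. The part of RNA integrity in the *Nrg1* differences was not tested.

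**Figure D3:**
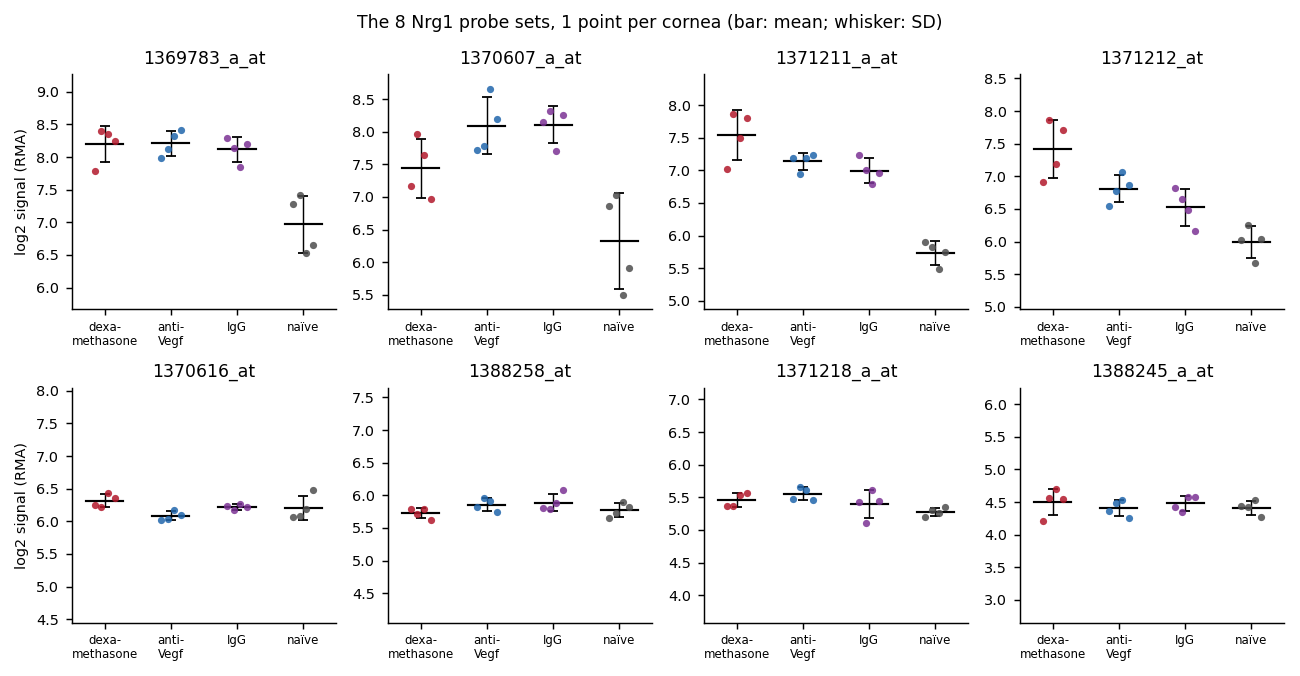
Log2 signal (y axis, the same span in every panel) of the 8 Nrg1 probe sets in the dexamethasone, anti-Vegf, IgG and naïve groups (x axis), with 1 point per cornea, the mean as a bar and the SD as a whisker. The top row holds the 4 probe sets that rose relative to naïve, and in 1371212_at the dexamethasone corneas lie above the IgG corneas, while in 1370607_a_at the dexamethasone mean (7.44) is below the IgG mean (8.11).

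Of the receptors, *Erbb3*, the partner that binds neuregulins, differed between treatments. On 1369088_at it read 7.61, 7.37, 7.32 and 7.42 in dexamethasone and 8.05, 7.91, 7.95 and 7.91 in anti-*Vegf* corneas. It read 8.09, 7.88, 7.77 and 7.65 in IgG and 7.50, 7.40, 7.71 and 7.65 in naïve corneas. The dexamethasone corneas lay below all anti-*Vegf* and IgG corneas and overlapped with the naïve ones. *Erbb3* was lower in dexamethasone than in anti-*Vegf* by -0.52 (SE 0.10, 1.44-fold lower, adjusted p = 0.00623 by limma) and than in IgG by -0.42 (SE 0.10, 1.34-fold lower, adjusted p = 0.0145). Relative to naïve, the difference was -0.13 in dexamethasone (adjusted p = 0.397), 0.39 in anti-*Vegf* (adjusted p = 0.00815) and 0.29 in IgG (adjusted p = 0.0429), all under the 1.5-fold limit.

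The *Ereg* and *Erbb3* differences stand beside the RNA measures of the same arrays. Over the 16 arrays, *Erbb3* followed the *Actb* 5′ minus 3′ difference with a Pearson r of 0.686 (permutation p = 0.00298, 0.0298 after adjustment over 20 relations) and a Spearman rho of 0.676 (permutation p = 0.00516, adjusted 0.0398). Without the 2 arrays farthest from the median r was 0.655, and with group means removed it was 0.57. For *Ereg*, r was 0.507 (permutation p = 0.0454, adjusted 0.182) and rho 0.668 (permutation p = 0.00597, adjusted 0.0398), with r at 0.633 without the 2 farthest arrays and 0.222 with group means removed. The permutations mixed arrays of all groups, so these p-values also take in differences between groups. No p was computed with group means removed. Dexamethasone and IgG arrays did not overlap in the *Actb* difference (-1.38 to -0.95 against -0.79 to -0.59, exact permutation p = 0.0286), so it cannot be told apart from treatment in that comparison. Dexamethasone and anti-*Vegf* arrays overlapped in it (-1.38 to -0.95 against -1.19 to -0.60, exact permutation p = 0.143). In the *Gapdh* difference the dexamethasone arrays, from -0.48 to -0.32, overlapped with neither the anti-*Vegf* arrays, from -0.16 to -0.08, nor the IgG arrays, from -0.15 to -0.04 (exact permutation p = 0.0286 for both), so by that measure integrity cannot be told apart from treatment in either comparison. The poly-A spikes separate dexamethasone from both groups and cannot be told apart from treatment there.

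**Figure D4:**
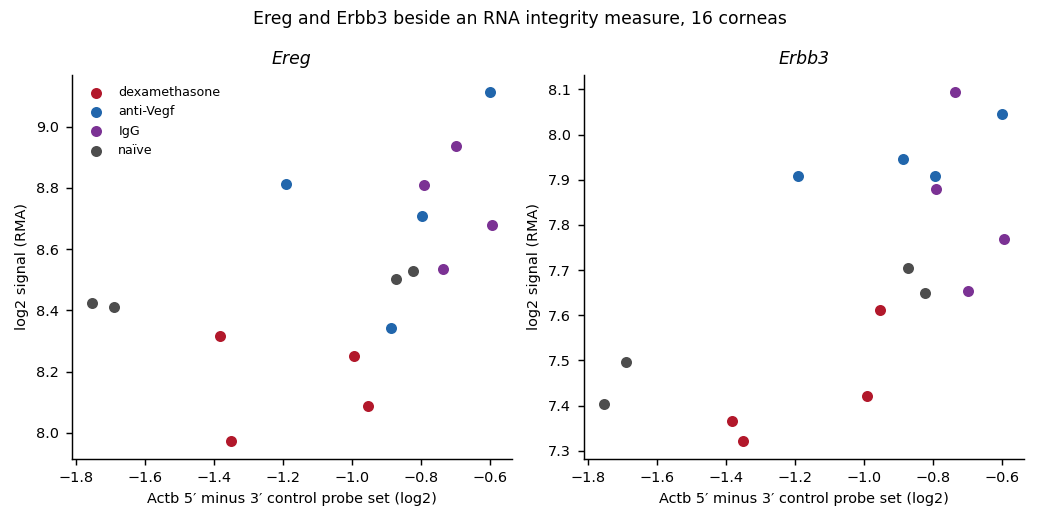
Log2 signal of Ereg and Erbb3 (y axis) against the Actb 5′ minus 3′ control difference (x axis, log2), with 1 point per cornea coloured by group. For Erbb3, lower signals tend to go with more negative differences (Pearson r of 0.686 over 16 arrays). Naïve replicates 3 and 4, at -0.87 and -0.82, lie within the anti-Vegf range of differences but below all anti-Vegf signals. For Ereg the 4 lowest signals are those of the dexamethasone corneas.

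*Erbb2* was lower in the sutured groups by less than the fold limit. On 1387813_at it read 9.19, 8.78, 8.66 and 9.19 in dexamethasone and 9.24, 8.74, 8.84 and 9.02 in anti-*Vegf* corneas. It read 9.42, 8.95, 8.94 and 9.02 in IgG and 9.46, 9.41, 9.45 and 9.42 in naïve corneas, so only IgG replicate F17 reached the naïve range. The difference from naïve was -0.48 in dexamethasone (SE 0.14, 1.39-fold lower, adjusted p = 0.0206 by limma), -0.47 in anti-*Vegf* (adjusted p = 0.0188) and -0.35 in IgG (adjusted p = 0.0722). Centred on reference genes, it was called lower in dexamethasone (-0.68) and in anti-*Vegf* (-0.74).

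*Egfr*, the receptor of the ligands other than *Nrg1*, was not called in any comparison by any of its 3 probe sets. On 1381145_at it read 11.46, 11.63, 11.50 and 10.99 in dexamethasone and 11.34, 11.84, 11.44 and 11.61 in anti-*Vegf* corneas. It read 11.60, 11.71, 11.35 and 11.30 in IgG and 11.92, 12.08, 11.16 and 10.87 in naïve corneas. The naïve corneas spanned both ends of the range, and replicates 1 and 2 were again the higher pair. The difference from naïve was -0.11 in dexamethasone (95% interval -0.59 to 0.36), 0.05 in anti-*Vegf* (-0.42 to 0.53) and -0.02 in IgG (-0.49 to 0.46), so changes within these bounds are not excluded. Probe set 1370830_at had a wider spread, with 11.70, 12.32, 11.09 and 10.04 in naïve corneas and an SE of 0.41. The 3 probe sets did not follow RNA integrity in the same direction. With group means removed, the *Actb* difference went with 1381145_at at r = -0.904 and 1370830_at at r = -0.643, and with 1385413_at at r = 0.754, each over 16 arrays.

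Other genes of the pathway were read from 6 lists written from general knowledge. Of 3 measured genes among the other receptors and ligands, *Nrg4*, a ligand of Erbb4, fell by 1.42 in dexamethasone, 1.14 in anti-*Vegf* and 1.11 in IgG relative to naïve (SE 0.20, adjusted p = 9.01e-05, 0.000485 and 0.000671 by limma). *Nrg2* and *Erbb4* were not called. The list's median difference was -0.13 in dexamethasone, -0.06 in anti-*Vegf* and -0.11 in IgG, where the median of all genes was 0.00, -0.01 and -0.01.

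Among 20 ERK response genes, 9 rose and 1 fell in dexamethasone, 4 rose and 1 fell in anti-*Vegf*, and 12 rose and 2 fell in IgG relative to naïve, with list medians of 0.65, 0.31 and 0.75. Over all genes, 12.6%, 12.8% and 11.3% were called in the same order. *Myc* (1.88, 1.36 and 1.56), *Fosl1* (1.44, 1.38 and 1.25) and *Klf10* (1.08, 1.21 and 1.25), all transcription factors, rose in dexamethasone, anti-*Vegf* and IgG. *Fos* and *Egr1*, which are induced within minutes of receptor signalling, rose by 2.07 and 2.02 in dexamethasone and by 2.26 and 2.29 in IgG, and in anti-*Vegf* corneas the differences were 1.29 and 0.85 with adjusted p values of 0.116 and 0.221. In dexamethasone both overlapped with naïve corneas, which read 8.84 to 11.67 for *Fos* and 8.59 to 11.33 for *Egr1*. In IgG both lay above the naïve range. Neither these genes nor any other of the list was called between anti-*Vegf* and IgG. *Etv5*, an ETS factor, fell by 1.01, 1.38 and 1.43. Without naïve replicate 1 the anti-*Vegf* count was 8 in place of 5, and centring on reference genes also gave 8.

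Among 18 feedback inhibitors, 5 rose and 2 fell in dexamethasone, 3 rose and 3 fell in anti-*Vegf*, and 5 rose and 1 fell in IgG relative to naïve, with list medians of 0.18, 0.10 and 0.14. The called shares of all genes were 12.6%, 12.8% and 11.3%. *Sh3kbp1*, an adaptor in receptor uptake, rose by 1.26, 1.47 and 1.46, and *Dusp6*, a phosphatase that inactivates ERK, by 0.91, 1.08 and 1.27. *Dusp7* rose by 1.01 in dexamethasone and 1.055 in anti-*Vegf*. Its IgG corneas, from 10.1 to 10.5, lay above the naïve ones, from 9.4 to 9.8. *Lrig1*, a membrane protein that dampens ErbB signalling, fell by 0.94 in anti-*Vegf* and 0.72 in IgG. Its dexamethasone corneas, from 10.2 to 10.7, also lay below the naïve ones, from 11.1 to 11.3. Between treatments, *Dusp5*, a nuclear ERK phosphatase, was lower in dexamethasone than in anti-*Vegf* (-0.72, SE 0.12, adjusted p = 0.00278) and than in IgG (-0.67, SE 0.12, adjusted p = 0.0028). *Dusp1*, a phosphatase known to be induced by glucocorticoids, was 1.02 higher in dexamethasone than in anti-*Vegf* (SE 0.24, adjusted p = 0.0181), with overlapping corneas. It was not called between dexamethasone and IgG, where it averaged 11.80 and 11.67. Relative to naïve, *Dusp1* rose by 1.09 in dexamethasone and 0.96 in IgG.

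The 3 remaining lists had few calls, and their counts moved with the centring. With arrays centred on reference genes, 3 of 9 shedding genes were called in dexamethasone in place of 1, 3 of 19 adaptors and kinases in anti-*Vegf* in place of 1, and 2 of 8 coreceptors in anti-*Vegf* and in IgG in place of 1 each. Uncentred, 12.6% of all genes were called in dexamethasone, 12.8% in anti-*Vegf* and 11.3% in IgG relative to naïve. In the shedding list of 9 genes, 1 was called in dexamethasone, 2 in anti-*Vegf* and 3 in IgG relative to naïve. *Adam8* rose by 0.78 in dexamethasone and 0.65 in IgG, *Adam9* by 0.60 in IgG, *Adam15* fell by 0.76 in anti-*Vegf*, and *Timp3*, a protease inhibitor, fell by 1.16 in anti-*Vegf* and 0.69 in IgG. The IgG count was 1 without IgG replicate F19 or F23 or naïve replicate 2 and 0 without naïve replicate 3, and the dexamethasone count 2 without dexamethasone replicate F25 or F30 or naïve replicate 1 or 2. Of 8 coreceptors and partners, *Cd44*, a hyaluronan receptor, rose by 1.18, 1.50 and 1.30 in dexamethasone, anti-*Vegf* and IgG, and *Sdc4*, a heparan sulfate proteoglycan, by 0.71 in dexamethasone. A second gene was called in anti-*Vegf* without naïve replicate 4, and in IgG without naïve replicate 3 or 4. Of 19 receptor adaptors and kinases, *Pik3r3*, a regulatory subunit of PI3K, fell by 0.60 in dexamethasone relative to naïve, and was lower in dexamethasone than in anti-*Vegf* by -0.88 and than in IgG by -1.17 (SE 0.10, adjusted p = 0.000288 and 4.68e-05). The dexamethasone count against naïve of 1 became 0 without dexamethasone replicate F26 or naïve replicate 3, and 2 without dexamethasone replicate F25 or naïve replicate 2. *Eps8*, an Egfr substrate, rose by 0.76 in anti-*Vegf* and 0.70 in IgG relative to naïve, and *Src* fell by 0.65 in IgG.

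Between treatments the same lists held few calls, and none between anti-*Vegf* and IgG. *Pik3r3* and *Dusp5* are given above. In dexamethasone relative to anti-*Vegf*, the sheddase *Adam10* (-0.40, adjusted p = 0.0214 by limma), *Eps8* (-0.42, adjusted p = 0.0218), the adaptor *Nck1* (-0.29, adjusted p = 0.0483) and the ETS factor *Elk3* (-0.34, adjusted p = 0.0204) were lower. *Plcg1*, a phospholipase that binds activated receptors (0.34, adjusted p = 0.0323), and *Sdc4* (0.41, adjusted p = 0.0254) were higher. In dexamethasone relative to IgG, *Phlda1* (-0.76, adjusted p = 0.00965), the phosphatase *Ptpn1* (-0.34, adjusted p = 0.0285), *Adam9* (-0.42, adjusted p = 0.0338), *Adam10* (-0.33, adjusted p = 0.0404) and *Eps8* (-0.36, adjusted p = 0.0349) were lower, and *Src* (0.34, adjusted p = 0.0144) was higher. Of all genes, 7.13% were called in dexamethasone against anti-*Vegf* and 10.6% against IgG. By list, the calls against anti-*Vegf* and against IgG were 1 and 1 of 20 ERK response genes, 2 and 2 of 18 feedback inhibitors, 1 and 2 of 9 shedding genes, 1 and 0 of 8 coreceptors, and 4 and 3 of 19 adaptors and kinases. These counts were unstable, and leaving out any 1 of the 8 arrays compared moved at least 1 of them by over 1.5 times, with ranges of 0 to 4, 1 to 3, 0 to 1, 0 to 1 and 1 to 3 against anti-*Vegf* and of 1 to 2, 1 to 3, 0 to 1, 0 to 0 and 2 to 4 against IgG.

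**Figure D5:**
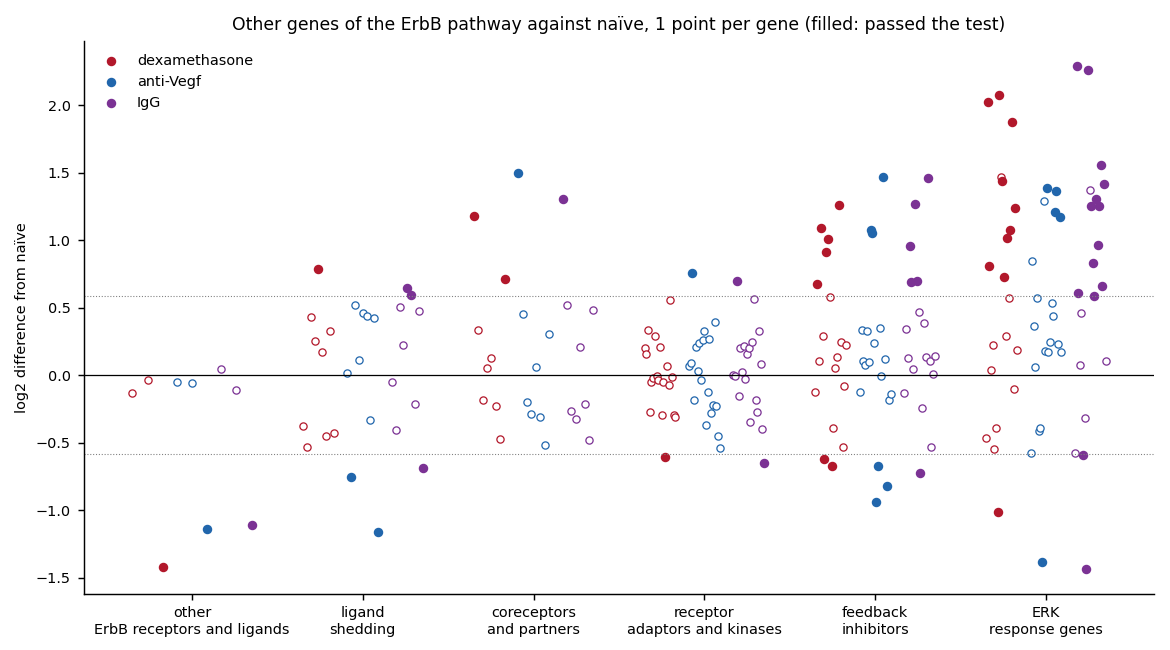
Log2 difference from naïve (y axis) of each measured gene in 6 lists of the ErbB pathway (x axis) for the dexamethasone, anti-Vegf and IgG groups, with filled points where the test was passed and dotted lines at 1.5-fold. The ERK response genes reach the highest differences, with Fos at 2.26 and Egr1 at 2.29 in IgG and at 2.07 and 2.02 in dexamethasone. Nrg4 is the filled low point of the first list in each group.

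Genes whose pattern over the 16 arrays was most like that of the 3 members with the largest changes were listed from 10874 genes above the low-signal limit, as a description, since all arrays share the split between sutured and naïve tissue. For *Areg* these were *Nnmt* (r = 0.983), *Ripk3* (r = 0.979), *Emg1*, *Ifngr1* (r = 0.971) and *Arpc1b* (r = 0.970). For *Nrg1* they were *Ptpn12* (r = 0.966), *Fblim1* (r = 0.965), *Pde7a*, *Klf7* and *Ptprz1*. For *Egf* they were *Ivns1abp* (r = 0.957), *Tmem67* (r = 0.955), *Paip1*, *Ermard* and *Stk35*.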

How the data were processed

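RNA of each of 16 corneas (4 per group) was amplified with a 3′ in vitro transcription kit and hybridised to an Affymetrix rat array. The deposited log2 values, 1 per probe set and array, were made by the authors from the scans with RMA (background correction, normalization and log2 transformation) in the Expression Console software, whose versions are not given in the sources used here. They were used as deposited. The number of arrays limits precision. Array medians lay between 6.551 and 6.618, and 0 sample columns were left out. The members and lists were chosen with earlier results of these data known.

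Of 31099 probe sets, 57 controls were kept for quality checks only. Of the 31042 others, 20826 carry 1 gene symbol, 436 several and 9780 none, and the first kind gives 14217 genes, of which 4525 have more than 1 probe set. Probe sets were paired with genes through the platform annotation, and 20758 were found in the RefSeq gene table (GRCr8), with 0 symbols updated.

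limma 3.58.1 in R 4.3.3 fitted all 16 arrays to group means, leaving 12 residual degrees of freedom, with Benjamini-Hochberg adjustment over all tested probe sets. Against naïve the limits were those of the study's methods, 0.05 for the adjusted p and 1.5 for the fold change. Every member is named, and so are up to 4 called genes of each pathway list and comparison with the largest changes, and the 5 genes most correlated with each of the 3 members that changed most. By the study's methods each array held 1 cornea, so p-values measure the spread between corneas, with any technical spread included. The labels do not say whether the corneas of a group were handled separately. Control probe sets were compared by exact permutation tests, and correlations by 100000 permutations of all 16 arrays regardless of group. Alternatives were cyclic loess, centring on reference genes (6 of 10 measured), a variance trend with robust moderation, a fit of the compared groups only, a low-signal filter (above the 40th percentile on at least 4 arrays), averaging all probe sets of a gene, the fold limit, and leaving out each array. Scripts were tested on simulated data, and motifs were searched with Python 3.11.15.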

Additional observations from a re-analysis of the deposited data

Results flagged for a closer look

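In 3 of 80 sets of 4 corneas (20 probe sets in 4 groups) 1 array lay far from the other 3, where chance gives about 4, 1 in 20. *Egf* in IgG replicate F23 read 5.72, against 5.97 to 6.01 in the other IgG corneas, a gap of 0.869 of the range. *Egfr* probe set 1385413_at in dexamethasone replicate F27 read 6.90, against 7.09 to 7.09 (0.959 of the range). *Erbb2* in IgG replicate F17 read 9.42, against 8.94 to 9.02 (0.833 of the range), which put that cornea at the naïve level.

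Effects of suture and drops differed between treatments in 6 comparisons, each tested by limma on the difference itself. *Ereg* was lower in dexamethasone than in anti-*Vegf* (-0.59) and than in IgG (-0.58), in 4 of 4 dexamethasone corneas. *Erbb3* was lower in dexamethasone than in anti-*Vegf* (-0.52) and than in IgG (-0.42), also in 4 of 4. *Nrg1* was higher in dexamethasone than in IgG by 0.55 on probe set 1371211_a_at and by 0.89 on 1371212_at. The corneas overlapped on 1371211_a_at, and its call was lost in 8 of 14 repeats. Probe set 1370607_a_at differed by -0.67 and was not called.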

How the results depend on the processing

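The counts of called members relative to naïve (4, 4 and 4) stayed within 1.5 times under every alternative, and leaving out any 1 array left the counts of members in all 6 comparisons as they were (4 to 4, 4 to 4, 4 to 4, 2 to 2, 2 to 2 and 0 to 0). Dexamethasone against anti-*Vegf* gave 1 in place of 2 when only those arrays were fitted (*Erbb3*) and 1 when a 1.5-fold limit was added (*Ereg*), and dexamethasone against IgG gave 0 in place of 2 with that limit, both members being below it. Most of the 120 differences of single probe sets were not called to begin with. In 1716 repeats of them, 1679 outcomes, called or not, stayed as they were, 22 calls were lost, 15 were gained and 0 reversed. Of the lost calls, 8 in 14 repeats were of *Nrg1* 1371211_a_at in dexamethasone against IgG. Another 4 in 14 were of 1370607_a_at in dexamethasone against naïve. Centring on reference genes moved the median of all genes against naïve to -0.20 in dexamethasone, -0.28 in anti-*Vegf* and -0.20 in IgG, and the share of rises among called genes to 34.6% from 64.8%, to 20.4% from 53.5% and to 28.3% from 55.8%. For dexamethasone against anti-*Vegf* that share was 84.5% in place of 65%. It also moved the count of all genes called in anti-*Vegf* to 2806 from 1814, and in dexamethasone against anti-*Vegf* to 1530 from 1013, which fell to 544 with only those arrays fitted. The cause was not tested. The low-signal filter gave no value for *Btc* and for dim *Nrg1* probe sets. No paired analysis was possible because the groups share no replicate numbers.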
